A study of Mus musculus with 96 samples.

Results

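A set of 10 genes of the red cell and platelet lineages were followed through 96 single leukemic spleen cells. They were Gata1, Gfi1b, Klf1, Car1, Car2, Hbb-b1, Hba-a1, Itga2b, Pf4 and Gp9, 10 of the 23955 gene symbols with a deposited TPM value, a level scaled by transcript length and to the same total in each cell. The genes were taken by name, as a list of erythroid and megakaryocyte genes, and every one had a row. A cell was counted as positive for a gene, or as having it, at 10 TPM or more. Of the 10 genes 8 reached that level in any cell, as did 51.1% of all 23955 genes. Klf1 and Hbb-b1 did not.

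The cells came from 2 moribund mice, 48 cells from each, which shared 1 genotype, Flt3ITD/ITD;Dnmt3afl/- with MxCre. Flt3ITD is an activating internal duplication in a receptor tyrosine kinase of blood progenitors, both copies of which carried it. One Dnmt3a copy, which encodes a DNA methyltransferase, was floxed and the other was a null allele. MxCre is a Cre recombinase under an interferon-responsive promoter, so it is not limited to 1 blood lineage. Spleen cells were taken after lysis of red cells and selected with beads for c-Kit (CD117), the receptor of stem cell factor. Each mouse was 1 animal, and the TPM column labels of its cells shared 1 prefix that those of the other mouse did not have. The animal and any batch behind that prefix cannot be told apart, and no difference between the mice has a replicate check. Spleen cells of the Flt3ITD/ITD;Dnmt3afl/fl controls that the protocols mention were not analysed here.

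In the bone marrow, stem and progenitor cells begin to transcribe genes of a lineage at low levels before they commit to it, which is called priming. The transcription factors Gata1, Gfi1b and Klf1 act in the red cell and platelet branches, where Gata1 activates globin, heme and platelet genes, Gfi1b represses genes of other fates, and Klf1 activates the adult beta globin gene. Car1 and Car2 encode carbonic anhydrases of red cells, and Hbb and Hba genes encode the globin chains of hemoglobin. Itga2b encodes the CD41 integrin chain, Pf4 a chemokine stored in platelet granules and Gp9 a subunit of the platelet receptor for von Willebrand factor. Gata1, Gfi1b, Car2 and Itga2b are not limited to these branches, since mast cells, basophils and early progenitors also use some of them.

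Promoter sequences were available from RefSeq (GRCm38.p6) for 7 of the 10 genes, all but Car1, Car2 and Hbb-b1. Of the letters that GATA factors bind, AGATAA or TGATAA on either strand, a match lay within 250 bases before the start of 3 of the 7, Gfi1b, Klf1 and Hba-a1, and in 16.99% of the 27025 promoters of the table. The Gfi1b promoter (chr2:28621983-28622232, minus strand) is shown because Gfi1b was the transcription factor found in the most cells. The promoters of Pf4 (chr5:90772185-90772434, plus strand) and Gp9 (chr6:87777820-87778069, plus strand) are shown beside it as platelet genes without a match, which Gata1 and Itga2b lacked as well. Capitals mark the match, and all run 5′ to 3′ and end at the base before the RefSeq start.
Gfi1b: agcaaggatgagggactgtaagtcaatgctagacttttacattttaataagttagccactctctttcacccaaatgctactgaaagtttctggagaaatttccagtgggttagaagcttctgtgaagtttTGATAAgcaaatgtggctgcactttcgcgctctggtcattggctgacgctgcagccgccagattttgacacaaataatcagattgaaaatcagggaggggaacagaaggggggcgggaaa
Pf4: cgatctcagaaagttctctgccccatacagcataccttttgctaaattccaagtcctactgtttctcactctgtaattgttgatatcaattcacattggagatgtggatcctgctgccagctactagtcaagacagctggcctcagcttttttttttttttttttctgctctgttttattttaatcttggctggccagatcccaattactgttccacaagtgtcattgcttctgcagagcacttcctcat
Gp9: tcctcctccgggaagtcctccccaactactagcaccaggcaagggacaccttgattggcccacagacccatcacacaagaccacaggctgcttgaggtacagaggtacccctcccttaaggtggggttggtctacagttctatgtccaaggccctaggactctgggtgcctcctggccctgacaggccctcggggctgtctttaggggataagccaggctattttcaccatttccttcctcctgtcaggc
The match in Gfi1b began 120 bases before the start, that in Klf1 80 bases and that in Hba-a1 183 bases before it. The letters CACCC, which Klf factors bind, were found in 5 of the 7 promoters and in 51.3% of all, with both strands searched. The Ets letters CCGGAA were found in 0 of the 7 and in 12.2% of all. A match describes letters in a window and is not a measured site.

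The number of genes detected at 1 TPM had a median of 3606 in mouse 1 cells (1759 to 5559) and of 3083 in mouse 2 cells (1604 to 6018). Some cells stood apart from the rest. H2-Aa, an MHC class II chain of antigen-presenting cells, passed 1000 TPM in 14 mouse 1 and 20 mouse 2 cells. S100a8, a protein abundant in neutrophils, passed it in 1 and 10 cells. Cd34, a surface marker of stem and progenitor cells, reached 10 TPM in 32 and 18 cells, and Mpo, the myeloperoxidase of granulocyte and monocyte progenitors, in 29 cells of each mouse. Kit itself reached 10 TPM in 33 and 22 cells. Results on the 10 genes are therefore given over all cells and, where it matters, over the 33 cells of mouse 1 and 18 of mouse 2 that were below 1000 TPM for both H2-Aa and S100a8.

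Gfi1b (chromosome 2, 28609450 to 28621982, GRCm38) was the transcription factor seen in the most cells. Of the 48 cells per mouse, 13 were positive in mouse 1 (27.1%, with an exact 95% interval of 15.3 to 41.8%) and 1 in mouse 2 (2.08%, 0.0527 to 11.1%). The 13 cells of mouse 1 had from 56.1 to 2367 TPM, with a median of 402.6, and the cell of mouse 2 had 218 TPM. The next value below 10 TPM was 1.87 in mouse 1 and 1.01 in mouse 2, so no cell lay near the threshold. Gfi1b was thus either high or close to 0, and nearly all cells with it were from mouse 1.

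For Gata1 (chromosome X, 7959260 to 7978071), 2 mouse 1 cells were positive, at 210.4 and 10.7 TPM, and 0 mouse 2 cells (exact upper bound 7.40%). The 2 cells were numbers 31 and 35 of the 96. Klf1 (chromosome 8, 84901928 to 84905291) was above 0 in 3 cells of mouse 1, with 9.33 TPM at most (cell 33), and was listed at 0 in every cell of mouse 2. Of the 13 Gfi1b cells of mouse 1, 1 was positive for Gata1 and 0 for Klf1, the other factors of the branch.

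Car2 (chromosome 3, 14886273 to 14900770) was the most widespread of the 10 genes in both mice. Positive cells numbered 24 of 48 in mouse 1 (50%, 35.2 to 64.8%) and 7 of 48 in mouse 2 (14.6%, 6.07 to 27.8%), intervals that do not overlap but cover the counting of cells only. In those cells it ran from 12.9 to 9611 TPM in mouse 1, median 519.8, and from 44.8 to 4874 TPM in mouse 2, median 230.9. Car2 passed 1000 TPM in 8 cells of mouse 1 and in 1 of mouse 2. The highest values below the threshold were 3.59 and 2.03 TPM.

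Car1 (chromosome 3, 14766216 to 14808368) was rare. It was at 7134 TPM in cell 16, at 40.4 TPM in cell 11 and at 12.3 TPM in cell 32 of mouse 1, and at 1.86 TPM or less in mouse 2. Cell 16 also had the highest Car2, so the mean of Car1 in mouse 1, 150.0 TPM, fell to 1.41 TPM without it. Cell 11 was a cell with high H2-Aa (20800.6 TPM) and had 0.36 TPM of Cd34.

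Among the globins, the beta copies must be read together. The coding sequences of Hbb-bs and Hbb-bt were the same at 440 of 441 bases, and those of Hba-a1 and Hba-a2 at 425 of 426, so reads can be shared out among the copies in more than 1 way. Hbb-b1 stayed at 3.68 TPM or less. Hbb-b2, a symbol that the table lists beside Hbb-bt, and Hbb-bt had equal values in 96 of 96 cells and are given once, as Hbb-b2. Hbb-b2 is not 1 of the 10 genes. Mouse 1 had 19 positive cells of 48 (39.6%, 25.8 to 54.7%), from 60.2 to 7883 TPM, and mouse 2 had 7 of 48 (14.6%), from 44.5 to 1387 TPM. With the values of both rows added, beta globin passed 1000 TPM in 12 cells of mouse 1 and 2 of mouse 2.

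Alpha globin was in fewer cells. For Hba-a1 (chromosome 11, 32283511 to 32284465), 2 mouse 1 cells were positive, cell 16 at 1117 and cell 20 at 96.3 TPM, and 1 mouse 2 cell, at 13.5 TPM. Of the 19 cells with Hbb-b2 in mouse 1, 15 had Hba-a1 at 0, and in mouse 2 all 7 did. Hba-a2, Hba-x, Hbb-bs, Hbb-bh1 and Hbb-y were listed at 0 in all 96 cells. Because the other table gave Hbb-bs values above its floor in 7 cells of mouse 1 and 2 of mouse 2 where TPM listed 0, a globin copy at 0 here may still be transcribed. Of the cells with high H2-Aa, 0 of 14 in mouse 1 and 0 of 20 in mouse 2 were positive for Hbb-b2. Some of these cells had Hbb-b2 above 0, up to 4.17 TPM in cell 43 of mouse 1 and 3.75 TPM in cell 68 of mouse 2. Whether beta globin RNA came from the cell itself or from red cell RNA in the suspension was not tested.

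The platelet genes were each in fewer cells than Car2. For Itga2b (chromosome 11, 102453297 to 102470122), mouse 1 had 6 positive cells (12.5%, 4.73 to 25.2%), from 14.97 to 275 TPM, and mouse 2 had 1, at 85.9 TPM. Gp9 (chromosome 6, 87778072 to 87779768) was found in 4 cells of mouse 1, at 377.6, 203, 79.1 and 74.4 TPM, and in 1 of mouse 2, at 186 TPM. Pf4 (chromosome 5, 90772435 to 90773383) was at 22959.5 and 94.5 TPM in mouse 1 (cells 35 and 31) and at 127, 88.7 and 47.8 TPM in 3 cells of mouse 2. Pf4 was the only 1 of the 10 in more cells of mouse 2, by 3 against 2. Without cell 35 its mean in mouse 1 was 2.41 TPM, against 5.69 TPM in mouse 2.

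**Figure D1:**
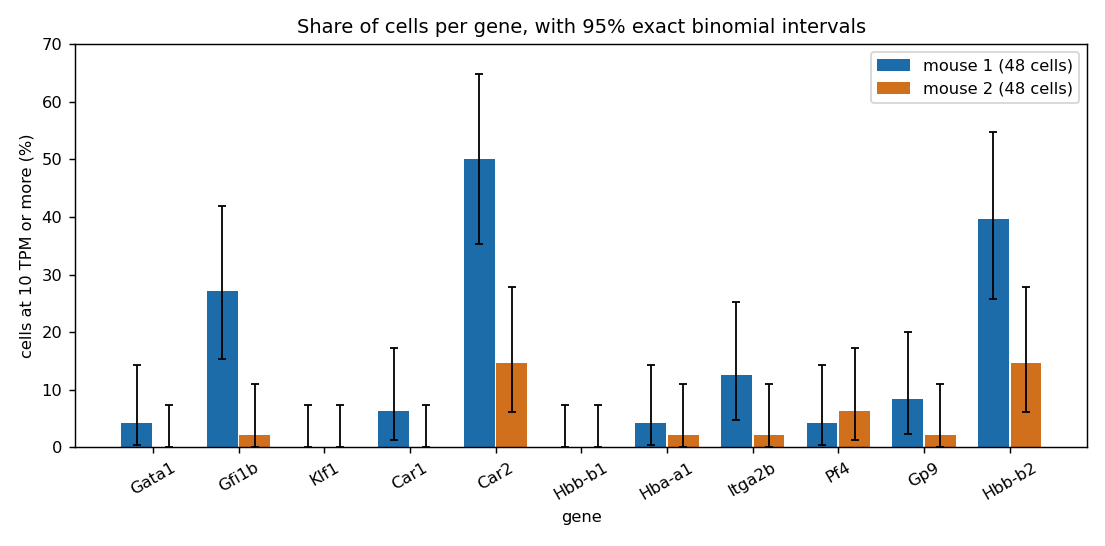
Percent of the 48 cells of each mouse at 10 TPM or more for the 10 genes and Hbb-b2, with bars for the share and lines for exact 95% binomial intervals over cells. Car2 (50% and 14.6%), Gfi1b (27.1% and 2.08%) and Hbb-b2 (39.6% and 14.6%) stand above the other genes in mouse 1.

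The low values of Pf4 followed the numbering of the cells. Of the 96 cells, 8 had Pf4 between 0 and 10 TPM, from 2.11 to 6.86 TPM, and the numbers of all 8 left the same remainder when divided by 8 as number 35, the cell with 22959.5 TPM. Those 8 were among 11 other cells at that position, 4 of them from mouse 2, and of the 84 cells elsewhere 0 had such a value. For Gfi1b 5 of 11 low values, for Car1 4 of 10 and for Car2 7 of 29 lay at the position of cell 16, where those genes were highest. Of the 84 cells elsewhere, low values were in 6 for Gfi1b, 6 for Car1 and 22 for Car2. Hba-a1, also highest in cell 16, had 1 of 4 low values at its position. For Itga2b 0 of 8 and for Gata1 0 of 2 lay at the position of cell 31, where they were highest. For Gp9 it was 1 of 1, at the position of cell 4. The pattern was looked for after the values were seen, and its cause was not tested. For Hbb-b2, 6 of 29 low values lay at the position of cell 4, where it was highest, and 23 lay in the 84 cells elsewhere. Some positive cells lay at such a position too. Hbb-b2 in cells 12, 20, 36 and 44 was at 3.27, 1.59, 11.7 and 16.8% of its level in cell 4. Car2 in cells 40 and 88 was at 12.3 and 3.66% of its level in cell 16, and Gfi1b in cell 40 at 45.7%. Cell 32 had 12.3 TPM of Car1 and 33.1 TPM of Car2, which is 0.173% and 0.344% of the levels in cell 16, and cell 96 had 13.5 TPM of Hba-a1, 1.21% of that in cell 16. Cells 32 and 40 are counted below among the cells with 2 or more of the genes. Cells 20 and 36 are counted among those with Gfi1b, Car2 and Hbb-b2.

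**Figure D2:**
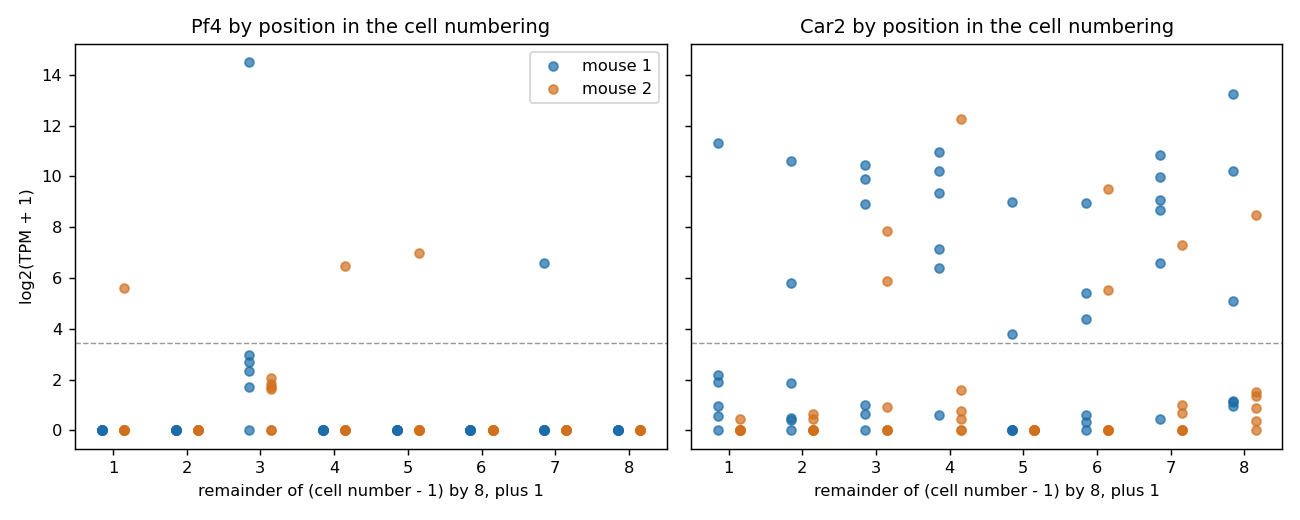
Levels of Pf4 and Car2, log2(TPM + 1), in each cell by its place in the cell numbering (the remainder by 8), coloured by mouse, with a dashed line at 10 TPM. All Pf4 values between 0 and 10 TPM lie at the place of cell 35, which had 22959.5 TPM.

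Several of the genes shared cells. In mouse 1, 29 cells had at least 1 of the 10 genes, 15 had 2 or more (31.3%, 18.7 to 46.3%), 6 had 3 or more and 1 had 6. In mouse 2, 12 cells had at least 1, 2 had 2 (4.17%, 0.509 to 14.3%) and none had 3. Of the 28 pairs of genes present in mouse 1, 21 met in some cell, against 2 of 15 pairs in mouse 2. All 21 were found in at least 1 of cells 16, 20 and 35, which had 4, 4 and 6 of the genes. The count of pairs thus rests on few cells, and other pairs of genes were not counted beside it. Cells with none of the genes had fewer detected genes, with a median of 2979 in mouse 1 against 3980 in cells with 2, and 13 of those 19 cells had high H2-Aa. The part that detection and cell type play in the sharing was not tested.

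Of the pairs among the 10 genes, Gfi1b and Car2 shared the most cells of mouse 1. Of the 13 Gfi1b cells of mouse 1, 11 had Car2 (84.6%, 54.6 to 98.1%), against 13 of the 35 cells without Gfi1b (37.1%). When the cells with high H2-Aa or S100a8 were left out, Car2 was in 12 of the 20 cells without Gfi1b (60%, 36.1 to 80.9%), a smaller gap, with intervals that overlapped. The 1 Gfi1b cell of mouse 2 also had Car2, at 57.9 TPM.

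Beta globin overlapped with both. In mouse 1, Hbb-b2 was in 8 of the 13 Gfi1b cells and in 11 of the 35 others, but in 11 of 20 others (55%) once the cells with high H2-Aa or S100a8 were left out, against 61.5%. Car2 was in 14 of the 19 Hbb-b2 cells of mouse 1 and in 10 of the 29 others, and below both limits in 14 of 19 (73.7%, 48.8 to 90.9%) against 9 of 14 (64.3%, 35.1 to 87.2%). In mouse 2, 6 of the 7 Hbb-b2 cells had Car2 (85.7%, 42.1 to 99.6%), and 1 of the other 41 did. Within the 18 cells of mouse 2 below both limits it was 1 of the other 11 (9.09%, 0.230 to 41.3%). Gfi1b, Car2 and Hbb-b2 were all present in 7 cells of mouse 1 and in 1 of mouse 2.

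Itga2b cells met Car2 and Hbb-b2, which were in many cells, more often than the other platelet genes. Of the 6 Itga2b cells of mouse 1, 5 had Car2 and 5 had Hbb-b2, while 2 had Pf4 and 1 had Gp9. Both Gata1 cells had Car2, Itga2b and Pf4. Only cell 35 had Pf4 and Gp9 together, and the 3 cells of mouse 2 with Pf4 had neither Itga2b nor Gp9. Of these 3, cell 77, with the most Pf4, had high H2-Aa (18688 TPM) and 0.60 TPM of Cd34. Cells 52 and 89 had 1330 and 219 TPM of Cd34. The Gp9 cell of mouse 2, cell 86, had high S100a8 (26570 TPM) and 0.24 TPM of Cd34.

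**Figure D3:**
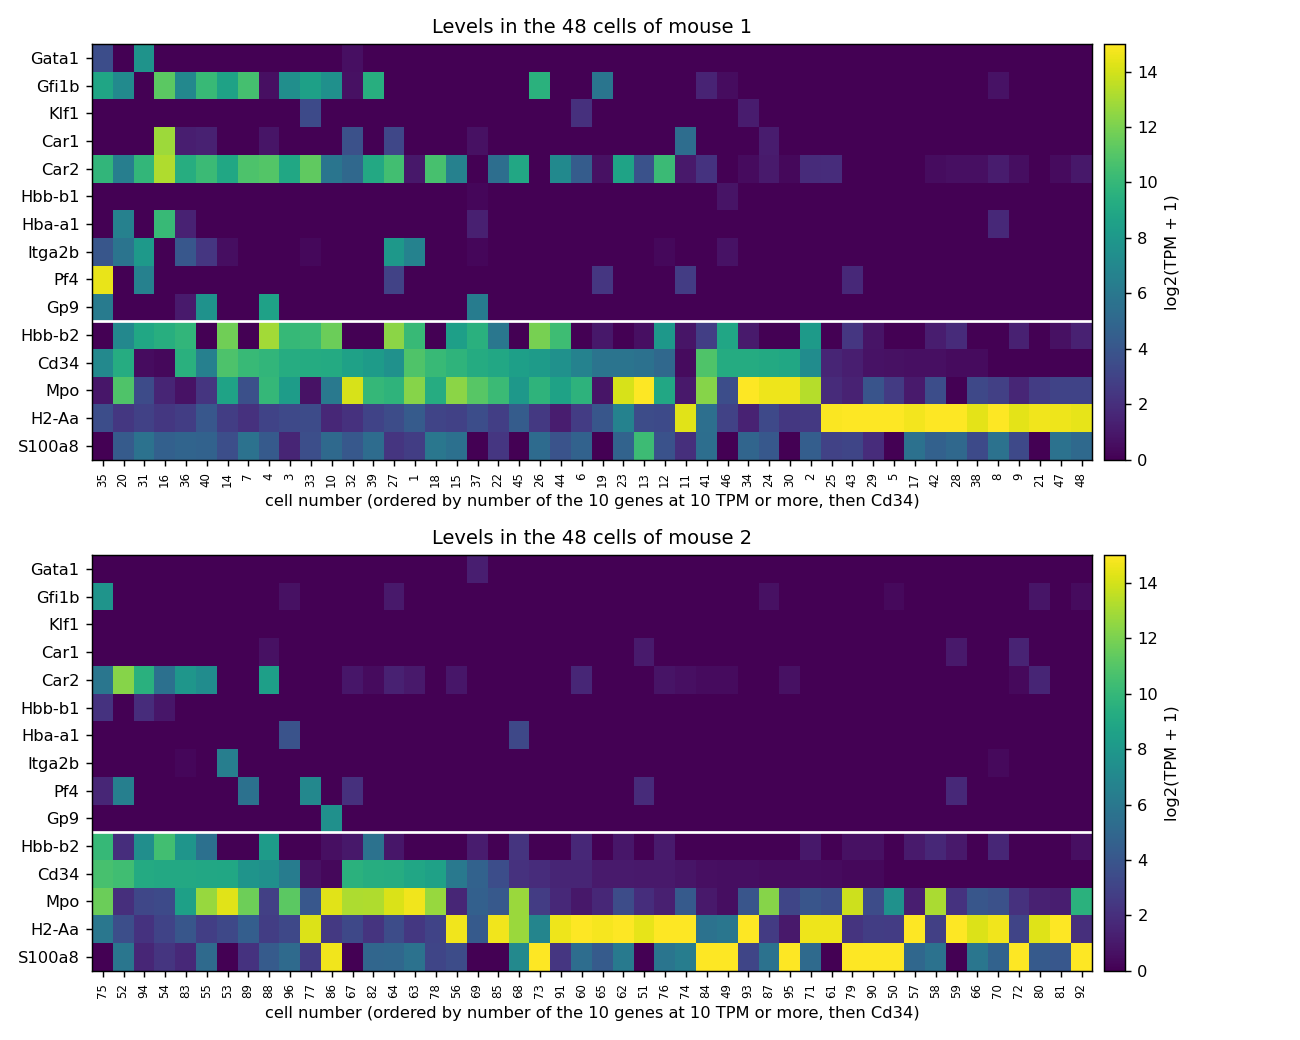
Colour gives log2(TPM + 1) of the 10 genes (above the white line) and of Hbb-b2, Cd34, Mpo, H2-Aa and S100a8 in each cell, with the 48 cells of a mouse in columns ordered by how many of the 10 genes were at 10 TPM or more. In mouse 1, 15 cells had 2 or more of the genes and in mouse 2 there were 2, and cells with high H2-Aa lie at the right with few of the genes.

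Cells with Car2 had Cd34. In mouse 1, Cd34 was positive in 22 of 24 Car2 cells, with a lowest value of 0.23, a median of 368.7 and a highest of 1829.9 TPM, and in 10 of the 24 other cells, with a median of 1.01 TPM. In mouse 2 it was positive in 7 of 7 Car2 cells, from 184.5 to 1561 TPM with a median of 534, and in 11 of the 41 others, with a median of 0.60 TPM. The 2 Car2 cells of mouse 1 without Cd34 were cells 16 and 31. Put the other way, Car2 was in 22 of 32 Cd34 cells of mouse 1 (68.8%, 49.99 to 83.9%) and 7 of 18 of mouse 2 (38.9%, 17.3 to 64.3%), and in 2 of 16 and 0 of 30 cells below 10 TPM of Cd34.

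The contrast in Cd34 was smaller without the cells that stood apart. Car2 was in 0 of 14 and 0 of 20 cells with high H2-Aa (exact upper bounds 23.2 and 16.8%), as were Gfi1b, Itga2b and Hbb-b2. Below the limits for H2-Aa and S100a8, Cd34 in Car2 cells and in the others had medians of 390.5 and 573 TPM in mouse 1 and of 534 and 389 TPM in mouse 2. The difference in Cd34 on the log2(TPM + 1) scale, 7.54 over all cells of mouse 1, was -0.55 there, and that of mouse 2 went from 8.39 to 0.46.

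For Mpo the direction depended on the same cells in mouse 1, and in mouse 2 the size did. Over all cells of mouse 1, Mpo had a median of 456.8 TPM in Car2 cells and 7.88 TPM in the others, a difference of 5.69. Below the limits for H2-Aa and S100a8 it was 411 TPM (0.63 to 17608) in Car2 cells and 5037 TPM (0.78 to 32576) in the others, a difference of -3.61. In mouse 2 the medians below the limits were 9.53 TPM (3.09 to 6658) and 8673 TPM (23.4 to 26342), a difference of -9.69, against -0.59 over all cells. In both mice, then, the ranges overlapped and the Car2 cells among these had the lower median of Mpo.

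Nearly all Gfi1b cells of mouse 1 had Cd34, while their Mpo varied widely around a low median. Cd34 was positive in 12 of 13, with a median of 579.7 TPM. Mpo had a median of 11.9 TPM (0.63 to 1854) but was positive in 7 of the 13, against 22 of the 35 cells without Gfi1b. In the other 20 cells below the limits, Cd34 had a median of 499.6 TPM and Mpo of 1708 TPM (9.74 to 32576), which gave differences of 0.22 and -6.98. Without cells 16, 31 and 35, which are described below, the Mpo difference over all cells of mouse 1 changed from -4.97 to -2.73. The single Gfi1b cell of mouse 2 had 1561 TPM of Cd34 and 3190.4 TPM of Mpo.

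Among cells with Cd34 that were below the limits for H2-Aa and S100a8, the share with Car2 differed by the level of Mpo. In mouse 1, Car2 was in 15 of 18 such cells below 1000 TPM of Mpo (83.3%, 58.6 to 96.4%) and in 6 of 13 at or above it (46.2%, 19.2 to 74.9%). In mouse 2 it was in 5 of 6 (83.3%, 35.9 to 99.6%) and in 2 of 10 (20%, 2.52 to 55.6%). Gfi1b was in 10 of 18 and 2 of 13 cells of mouse 1 (55.6%, 30.8 to 78.5%, and 15.4%, 1.92 to 45.4%), but in 0 of 6 and 1 of 10 of mouse 2. Any of the 10 genes was in 17 of 18 and 8 of 13 cells of mouse 1 and in 5 of 6 and 5 of 10 of mouse 2. The shares were higher at low Mpo for Car2 in both mice and for Gfi1b in mouse 1, with intervals that overlapped. Detected genes had a median of 3655.5 in the 18 cells and 4463 in the 13 of mouse 1, and of 4251.5 in the 6 and 4260.5 in the 10 of mouse 2.

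**Figure D4:**
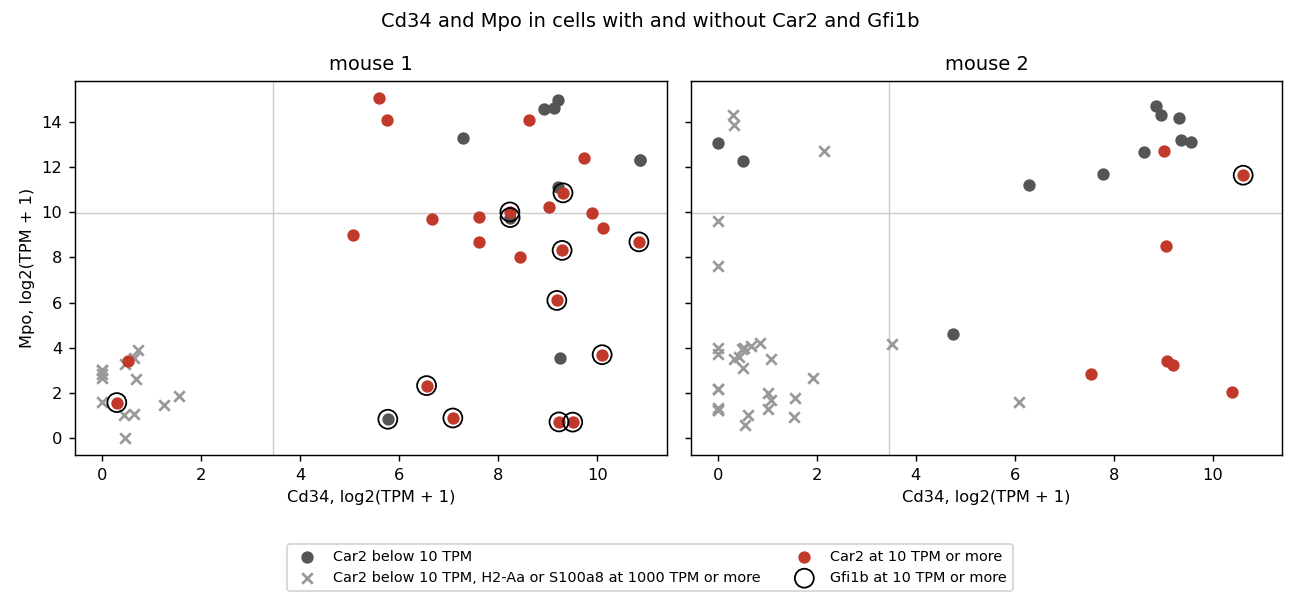
Each point is a cell, with Cd34 on the x axis and Mpo on the y axis, both as log2(TPM + 1), coloured by Car2 at 10 TPM or more and ringed for Gfi1b. Grey lines mark 10 TPM of Cd34 and 1000 TPM of Mpo, and to the lower right of them 15 of 18 cells of mouse 1 and 5 of 6 of mouse 2 below the limits for H2-Aa and S100a8 had Car2.

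Cell 16 of mouse 1 held the fullest red cell set. Besides Car1 at 7134 TPM, Car2 at 9611 TPM, Gfi1b at 2367 TPM and Hba-a1 at 1117 TPM it had 665 TPM of Hbb-b2. Of 9 erythroid markers 5 were at 10 TPM or more, among them Epor, the erythropoietin receptor, at 989 TPM and Rhag, a Rhesus-associated membrane protein, at 1396 TPM. Of 11 megakaryocyte markers 0 were. It also had 435 TPM of Fech, which inserts iron into heme, and 785 TPM of Tfrc, the transferrin receptor. Gata1 and Klf1 were at 0, Cd34 at 0.23, Mpo at 1.97 and Kit at 2.73 TPM. The genes of this cell and of cells 31 and 35 were chosen after their values were seen.

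Cell 35 of mouse 1 held the platelet set. With Pf4 at 22959.5 TPM it had Gp9 at 74.4, Itga2b at 14.97, Gata1 at 10.7, Gfi1b at 451 and Car2 at 955 TPM. Of 11 megakaryocyte markers, 2 of which are among the 10 genes, 9 were at 10 TPM or more, with Ppbp, a platelet chemokine, at 329 TPM. Of 9 erythroid markers 0 were. Cd34 was at 134.5, Mpo at 0.85 and Kit at 1.13 TPM.

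Cell 31 of mouse 1 had the highest Gata1, at 210.4 TPM, with 275 TPM of Itga2b, 94.5 of Pf4, 992 of Car2 and 488 of Hbb-b2, but 0 of Gfi1b. Its Gata2, a GATA factor of stem cells and mast cells, was at 1455 TPM, the highest of all cells of mouse 1, and its Kit at 875 TPM. Of 12 mast cell and basophil markers 1 was at 10 TPM or more, Gzmb at 319.6 TPM, and Cpa3, a mast cell protease, was at 2.31 TPM. Cd34 was at 0.44 TPM. Cells 16, 31 and 35 thus carried different sets of the genes.

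Cells 16 and 35 had the highest counts of erythroid and of megakaryocyte markers, and cell 31 had 0 of 9 and 1 of 11. Of 9 erythroid markers, of which Klf1 and Car1 are among the 10 genes, 44 cells of mouse 1 had 0 and 3 had 1, and all 48 cells of mouse 2 had 0. Of 11 megakaryocyte markers, 36 and 38 cells had 0, 10 in each mouse had 1, and cell 40 of mouse 1 had 2. Slc4a1, the anion exchanger of maturing red cells, was at 0 in every cell of both mice, and Alas2, the red cell enzyme of heme synthesis, at 3.27 TPM or less. The 13 Gfi1b cells of mouse 1 had a median summed level of 0 TPM for the erythroid markers and 0.61 TPM for the megakaryocyte markers. Their mast cell and basophil markers summed to a median of 4.03 TPM (0 to 7403), against 1.95 TPM (0 to 6632) in the other 35 cells. The same sum had a median of 87.6 TPM in the 24 Car2 cells of mouse 1 against 0.94 TPM in the others, and of 110.6 TPM in the 6 Itga2b cells against 1.63 TPM. In mouse 2 it was 1.07 TPM in Car2 cells and 1.58 TPM in the others. The part of that cell type in the result was not tested.

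Other regulators of the branches were in many cells. Of 12 erythroid regulators 11 reached 10 TPM in some cell, as did 51.1% of all 23955 genes. Of the 11 regulators, 9 were in more cells of mouse 1 and 1 in more cells of mouse 2. Of all 12249 genes at 10 TPM in any cell, 60.1% were in more cells of mouse 1. Nfe2, a platelet and globin gene activator, was in 30 and 21 cells, Myb, a progenitor factor, in 32 and 25, and Gata2 in 15 and 5. Lmo2, a bridge in the GATA complex, was in 31 cells of each. Zfpm1, the cofactor of Gata1, stayed below 10 TPM, and Epor was in cell 16 alone. In mouse 1 the 12 regulators summed to a median of 807.6 TPM in Gfi1b cells and 463.7 TPM in the others, with 5 of 12 at 10 TPM as the median in both.

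Of 24 heme and red cell genes 16 reached 10 TPM in some cell, as did 51.1% of all 23955 genes. Alas1, the heme synthesis enzyme used by all cells, was in 17 and 20 cells, Urod in 19 and 10 and Tfrc in 11 and 11. Rhag, Rhd, Ermap, Cldn13 and Tspo2, genes best known from red cells, were highest in cell 16 and in 0 cells of mouse 2. Of 8 megakaryocyte regulators and receptors 8 reached 10 TPM, with Fli1, an Ets factor of platelet genes, in 41 and 35 cells and Meis1, a stem and platelet factor, in 29 and 12. Of 18 platelet genes 15 did, with Rgs18 and Plek, signalling proteins of platelets and other blood cells, each in 38 and 21 cells and Cd9 in 36 and 39. Ppbp, Clec1b and Treml1, genes best known from platelets, were at 10 TPM in cell 35 alone.

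Between the mice, Car2 and Gfi1b differed most. The mean of log2(TPM + 1) over cells of Car2 was 4.61 ± 4.40 (SD over 48 cells) in mouse 1 and 1.41 ± 2.95 in mouse 2, a difference of -3.20 (mouse 2 minus mouse 1), and that of Gfi1b was 2.41 ± 3.90 and 0.25 ± 1.13, a difference of -2.17. Cells of the mice overlapped for both. Of the 10 genes, 8 had a mean of 1 TPM in either mouse, and these 2 of the 8 were lower by 1 or more in mouse 2. Of all 11471 genes with such a mean, 11.1% were. None of the 8 was higher by 1, against 1.53% of those genes. The 8 of the 10 that passed this filter had a median difference of -0.50, against -0.19 over all genes. A gene high in 1 mouse alone passes the filter through that mouse, so the members' median has no weight of its own.

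The other differences were smaller than 1. They were -0.71 for Itga2b, -0.54 for Car1, -0.46 for Gp9, -0.29 for Hba-a1, -0.22 for Gata1 and -0.09 for Pf4, each on the log2(TPM + 1) scale, which understates the change of genes seen in few cells. Hbb-b2 differed by -2.63 and Cd34 by -2.38. Of the 8 genes at 10 TPM in any cell, 7 were in more cells of mouse 1, and 60.1% of 12249 genes were. Widely detected genes, 2051 in number, had a median difference of -0.54. Relative to that shift Car2 was at -2.66, Gfi1b at -1.63, Itga2b at -0.17 and Car1 at -0.01. The sign turned for Pf4 (0.44), Gata1 (0.32), Hba-a1 (0.24) and Gp9 (0.07). A gene at 0 in every cell of both mice would also be positive on this scale. For genes seen in few cells these turned signs therefore do not show a higher level in mouse 2.

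Of the wider lists, 4 of the 11 erythroid regulators that passed the filter were lower by 1 or more in mouse 2, with a list median of -0.54. They were Lyl1 (-1.46), Gata2 (-1.27), Myb (-1.27) and Nfe2 (-1.25). Of the heme and red cell genes 1 of 15 was, Urod (-1.10), with a median of -0.23. Of the megakaryocyte regulators 2 of 7 were, Meis1 (-2.45) and Mef2c (-1.84), with a median of -0.32, and of the platelet genes 3 of 13, Rgs18 (-2.81), Plek (-2.69) and Nrgn (-1.12), with a median of -0.33. None of these lists had a gene higher by 1, against 1.53% of all genes that passed the filter. Of all those genes 11.1% were lower by 1 or more, with a median of -0.19, and widely detected genes had a median of -0.54. Some list genes passed the filter through 1 cell of mouse 1, as Epor did through cell 16, so the list medians have no weight of their own. Lyl1 and Nrgn are outside the rule for named genes and were chosen after their values were seen.

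The mice differed in the make-up of their cells as well, as the counts of cells with high H2-Aa and S100a8 above show. The part of that make-up in these differences was not tested beyond the values here. Without the cells with high H2-Aa the differences were -4.06 for Car2 and -2.99 for Gfi1b. That subset kept the cells with high S100a8, 1 in mouse 1 and 10 in mouse 2. Of those 10 cells of mouse 2, 0 had Car2 and 0 had Gfi1b, so the larger differences still carry the make-up of the cells. The differences below both limits were not computed. Within cells with Cd34, Gfi1b was in 12 of 32 of mouse 1 (37.5%, 21.1 to 56.3%) and 1 of 18 of mouse 2 (5.56%, 0.141 to 27.3%). These intervals overlapped, and of the Cd34 cells below the limits for H2-Aa and S100a8, 18 in mouse 1 and 6 in mouse 2 were below 1000 TPM of Mpo.

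The RPKM table, made separately, listed Gfi1b, Car1, Car2, Itga2b and Pf4, each with a floor value shared by most cells. For Car2 it was above the floor in 24 of the 24 cells of mouse 1 and 7 of the 7 of mouse 2 at 10 TPM or more, and in 3 and 1 further cells. Car1 was above it in 3 of 3 cells, Itga2b in 4 of 6 and 1 of 1, and Pf4 in 1 of 2 and 0 of 3. Gfi1b was above it in 3 of 13 cells of mouse 1 and 0 of 1 of mouse 2, and its highest RPKM was 5.68, in cell 7. Its mouse difference on the log2(RPKM + 1) scale was -0.07, so the gap between the mice for Gfi1b rests on the TPM table, while Car2 differed by -3.74 there. Over the 8236 genes in both tables, 31.6% of values at 10 TPM or more in mouse 1 and 29.1% in mouse 2 were above the floor, close to the share for Gfi1b, and Cd34 was in 10 of 32 and 6 of 18 cells.

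Genes that varied most like Gfi1b and Car2 over the 48 cells of mouse 1 were taken from 5975 genes at 10 TPM in at least 8 cells. For Gfi1b these were Abcg2, a drug efflux pump, with a Spearman correlation of 0.69, then Tsc22d1 at 0.58, Slc22a3 at 0.56, the ribosomal gene Rpl23 at 0.54 and Mga at 0.53. Of the 9 Abcg2-positive cells of mouse 1, 8 were Gfi1b cells. Over the cells of mouse 2, where 1 cell had Gfi1b, the values were 0.19, 0.13, -0.16, 0.14 and -0.02. The points share libraries and depth, and the correlations are descriptions without a test.

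For Car2 the closest were Ifitm2, an interferon-induced membrane protein, at 0.60, Trim13 at 0.58, Meis1 at 0.57, the ribosomal gene Rps18 at 0.56 and Glod4 at 0.55. In mouse 2 they were 0.36, 0.35, 0.48, 0.22 and 0.22. Meis1 was in 20 of the 24 Car2 cells of mouse 1. Car2 and Gfi1b had a correlation of 0.44 with each other, which placed Car2 at rank 40 for Gfi1b, and Car2 and Cd34 had 0.35 in mouse 1 and 0.55 in mouse 2.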

How the data were processed

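Each of the 96 samples was 1 cell, grouped by the mouse named in its title. The authors deposited TPM values from RSEM, as the file is named. The authors also deposited RPKM values, named for AltAnalyze, with a floor per gene. TopHat2, RSEM, Bowtie2 and the builds mm10 and mm9 are named in the submitters' processing notes; versions, and the build behind each table, are not given in the sources used here. TPM keeps no read depth, so depth is unknown and detected genes stand in its place.

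From these, cells at 10 TPM or more were counted (threshold 10), with exact (Clopper-Pearson) 95% intervals over cells, which cover counting error only. Levels were taken as log2(TPM + 1), with a filter of a mean of 1 TPM in either mouse. Cells of 1 animal are not replicates, so no test was made. Members and lists were chosen with earlier results of these data known. Named genes were the 10 members, Cd34, Mpo, Kit, the globins, up to 5 genes a list by mean TPM among those at 10 TPM in 5 or more cells, and the 5 genes most like a member seen in 8 or more cells. List genes were 26 for heme and red cells, of which 24 had a row. No doublet caller was run. Scripts were tested on simulated data. Positions are from GENCODE on GRCm38. Tools were Python 3.11.15, numpy 2.4.6, pandas 2.3.3 and scipy 1.17.1. Alternatives were other thresholds (1 and 100 TPM), pseudocounts (0.1 and 10), the RPKM table, subsets of cells and removal of detected-gene number.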

Additional observations from a re-analysis of the deposited data

How the results depend on the processing

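Shares of single genes stayed inside the main interval in 136 of 150 alternatives, and differences of single genes within 1.5 times in 38 of 69. The number of genes found in 5 or more cells, 3 in mouse 1 and 1 in mouse 2, was 7 and 2 at a threshold of 1 TPM, where low values by position count, and 1 in mouse 1 in the RPKM table. Cells with 2 or more of the genes, 15 in mouse 1 and 2 in mouse 2, were 9 and 0 in the RPKM table, which lists 5 of the genes. In mouse 2 they were 6 at 1 TPM, 0 at 100 TPM and 1 without cells with Mcpt8 at 100 TPM or more. The number of genes lower by 1 or more in mouse 2 went from 2 to 1 in the RPKM table.

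Cd34 in Car2 cells minus other cells of mouse 1, 7.54, was 2.46 at a threshold of 100 TPM, -0.64 without cells with high H2-Aa and -0.55 without those with high H2-Aa or S100a8, a limit chosen after seeing the data. For Mpo in mouse 1, 5.69, these last values were -3.47 and -3.61. In mouse 2, Cd34 went from 8.39 to 0.46 below both limits. Mpo went from -0.59 to -8.32 without high H2-Aa, -9.69 below both limits, -2.71 with 2500 or more genes and -0.35 with a pseudocount of 10. For Gfi1b cells of mouse 1, Cd34 went from 3.42 to 0.27, 0.22 below both limits and 2.20 with 2500 or more genes, and Mpo from -4.97 to -2.73 without cells 16, 31 and 35. In the 6 Itga2b cells of mouse 1, Cd34 was 1.47, -0.51 without high H2-Aa, -0.57 below both limits and -3.38 in the 2 cells at 100 TPM, and Mpo turned from -0.46 to 2.30 without cells 16, 31 and 35. Of the 5 genes most like Gfi1b, 2 were also among the top 5 after removal of detected-gene number and 2 without high H2-Aa. For Car2 it was 1 and 1, so these names depend on the processing. Leaving those cells out defines the change; other causes were not tested. No paired analysis was possible because cell numbers do not pair cells of the mice.

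With 48 cells a mouse, the exact interval of a gene seen in 0 cells reaches 7.40% of them, and low transcript capture cannot be told apart from absence.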
